A study of Mus musculus with 8 samples.

Results

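The 4 libraries described here compare rib chondrocytes of mice in which the seed region of the 3p arm of miR-140 was mutated, called CG mutants, with chondrocytes of their own wild types, across all genes. They are 4 of the 8 libraries of the study, 2 from CG mutants and 2 from CG wild types, and were chosen by their labels alone. The other 4 libraries come from a second line with a C>T base change and from its wild types, and enter here only in the estimate of the spread and where the effects of the lines are compared. The design text describes both alterations as ways to overexpress the 5p arm of miR-140. All mice were of the CD1 strain and 10 days old. Rib cartilage was digested with collagenase, and the cells were filtered and plated before RNA extraction, so the RNA is that of cultured cells. The labels give neither the bases that were changed nor whether the 2 libraries of a group are separate animals, so p-values below measure the spread between libraries, which may be technical.

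Most microRNA hairpins give rise to a pair of arms, and the arm that is loaded into an Argonaute protein represses mRNAs whose 3′ UTR pairs with its seed, a short run of bases near its 5′ end. miR-140 is among the most abundant microRNAs of cartilage, is made from an intron of the ubiquitin ligase gene Wwp2, and its loss impairs the growth of endochondral bone. A change in the seed of an arm takes away the pairing with that arm's targets and can create pairing with others.

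The mature 3p arm is shown because its seed is the altered region. Its unaltered RefSeq sequence lies within the hairpin of Mir140 at chr8:107551288-107551308 on the plus strand of GRCm38.p6, and the capitals mark its seed, bases 2 to 8.
mmu-miR-140-3p: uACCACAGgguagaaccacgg
A 3′ UTR that pairs with this seed holds the letters CTGTGGT, and an 8-base site has an A after them. The next 4 lines show the 8-base site, in capitals, in the 3′ UTRs of genes with such a site that were higher in both mutant libraries. They are the 4 genes with the smallest p-values, counting only named genes with a single site. The stretches are from GENCODE M21 on GRCm38, written along the mRNA, and run over chr9:70779922-70779951 on the plus strand, chr8:85098157-85098186 on the plus strand, chr2:115863783-115863812 on the minus strand and chr7:143665876-143665905 on the minus strand.
Adam10: gtaatgttatcCTGTGGTAgggttttgccc
Man2b1: gcttccagcacCTGTGGTAggtggctcatc
Meis2: tccagaagagaCTGTGGTAtattttaaacc
Tnfrsf23: ttaccccatacCTGTGGTAacttccctcac
Levels are given in CPM, a gene's counts scaled to the total of its library. Adam10, a protease that sheds membrane proteins, was at 40.5 and 35.3 CPM in the wild types and 55.0 and 59.6 in the mutants. Man2b1, a lysosomal mannosidase, was at 20.8 and 24.6 CPM in the wild types and 38.4 and 35.9 in the mutants. Meis2, a homeobox factor, was at 9.49 and 10.4 CPM in the wild types and 17.4 and 17.5 in the mutants. For each of the 3, both mutants lay above both wild types because the genes were chosen that way. Their edgeR adjusted p-values were 0.145, 0.145 and 0.145, and none passed the threshold of 0.05.

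The 4 CG libraries held 26536868 to 28267472 counts. Chondrocyte genes were abundant in all of them: Col2a1, the main collagen of cartilage, was at 25753 and 24959.5 CPM in the wild types and 41094 and 24139.5 in the mutants. Mutant replicate 1 stood apart from the other 3 libraries. On the first principal component, which held 57.3% of the variance, it lay at 50.3, while mutant replicate 2 lay at -7.71 and the wild types at -27.0 and -15.6. The log2 difference between the 2 mutants had an SD of 0.573 across genes, against 0.430 between the wild types, and 1161 genes (8.09%) differed between the mutants by more than 1 on the log2 scale, against 427 (2.97%) between the wild types. Of those 1161 genes, 955 were lower in mutant replicate 1. Both mutants and 1 of the wild types carried Y-linked reads, with Ddx3y counts of 2 and 2511 in the wild types and 2231 and 2360 in the mutants. Levels in CPM are therefore given for each mutant. A log2 fold change given alone is fitted to both mutants and can rest mostly on replicate 1. Without mutant replicate 1, those of Osgin1 and Itga3 were -0.514 and 0.407, against -0.935 and 0.765 with all libraries.

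With edgeR's quasi-likelihood test over all 8 libraries, 1 of 14359 genes passed an adjusted p of 0.05 (0.00696%), and 1633 had an unadjusted p under 0.05. Of these, 933 (6.5%) were higher and 700 (4.87%) lower in the mutants. Both mutants lay above both wild types for 3325 genes (23.2%) and below them for 3225 (22.5%). The gene that passed was Eif3j2, a subunit gene of translation initiation factor 3, which fell from 129 and 58.9 CPM in the wild types to 1.04 and 1.30 in the mutants, a log2 fold change of -6.32 ± 0.42 (SE; edgeR adjusted p = 0.00509). Its near-identical copy Eif3j1 was at 0.652 and 73.2 CPM in the wild types and 146 and 143 in the mutants, so the copies had opposite signs and differed between the wild types as well. An estimated count may assign the reads of such copies to either, and both values are uncertain for that reason. When the CG libraries were fitted without the others, the edgeR adjusted p of Eif3j2 was 0.266, and over all the alternatives its adjusted p ran from 4.43e-76 to 0.266.

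Other genes that the rule for named genes picked, by a small p or by a large gap between the groups, did not overlap between the groups, but none passed by edgeR's test. Some were called under alternatives, Pik3cd in 4 of 18 and Gsr in 3 of 18, DESeq2 being one of them for both. Among genes above both wild types, Cyb5b, a cytochrome b5 of the outer mitochondrial membrane, was at 81.3 and 87.6 CPM in the wild types and 135 and 122 in the mutants, a log2 fold change of 0.61 ± 0.088 (edgeR adjusted p = 0.107). Mfhas1, a leucine-rich repeat protein, was at 58.2 and 63.4 CPM in the wild types and 121 and 117 in the mutants. Gsr, the glutathione reductase, was at 62.0 and 57.2 CPM in the wild types and 105 and 174 in the mutants. These 3 genes are on chromosome 8, which also carries Wwp2, and mutant replicate 2 was the higher mutant for Gsr. Syt8, of the synaptotagmin family, was at 5.29 and 5.07 CPM in the wild types and 19.99 and 11.1 in the mutants. Trf, which encodes transferrin, the iron carrier of plasma, was at 33.6 and 26.5 CPM in the wild types and 144 and 68.9 in the mutants. C4b, a complement component with an 8-base 3p seed site, was at 119 and 82.5 CPM in the wild types and 299.7 and 242 in the mutants. For the last 3 of these genes mutant replicate 1 was the higher mutant. Vill, a villin-like protein, and Krt80, a keratin, had log2 fold changes of 0.97 ± 0.16 and 1.07 ± 0.25, from wild-type levels of 5.51 and 5.19 CPM for Vill and 1.99 and 2.00 CPM for Krt80.

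Among genes below both wild types, Cwc22, a splicing factor, was at 138 and 134 CPM in the wild types and 43.3 and 40.0 in the mutants, with a log2 fold change of -1.71 ± 0.21 (edgeR adjusted p = 0.0804). It was the gene that passed, at an edgeR adjusted p of 0.0466, when the 4 CG libraries were fitted alone; over the alternatives its adjusted p ran from 3.03e-13 to 0.33. Ddit4l, an inhibitor of mTOR signalling, was at 315 and 302 CPM in the wild types and 179 and 202 in the mutants. Ephx1, the microsomal epoxide hydrolase, was at 48.7 and 40.8 CPM in the wild types and 21.6 and 24.0 in the mutants. Each of these 3 genes was at similar levels in both mutants. Pik3cd, a catalytic subunit of PI3 kinase, was at 17.9 and 26.9 CPM in the wild types and 6.94 and 8.05 in the mutants. Slc19a2, a thiamine transporter, was at 114 and 98.9 CPM in the wild types and 60.3 and 65.5 in the mutants. Srp54a, a subunit of the signal recognition particle, was at 42.7 and 45.8 CPM in the wild types and 26.3 and 26.8 in the mutants. All 3 had mutant values within a narrow range of each other. Nos2, the inducible nitric oxide synthase, was at 65.4 and 65.6 CPM in the wild types and 3.20 and 26.1 in the mutants, so the wild types nearly coincided while mutant replicate 1 was far below replicate 2.

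**Figure D1:**
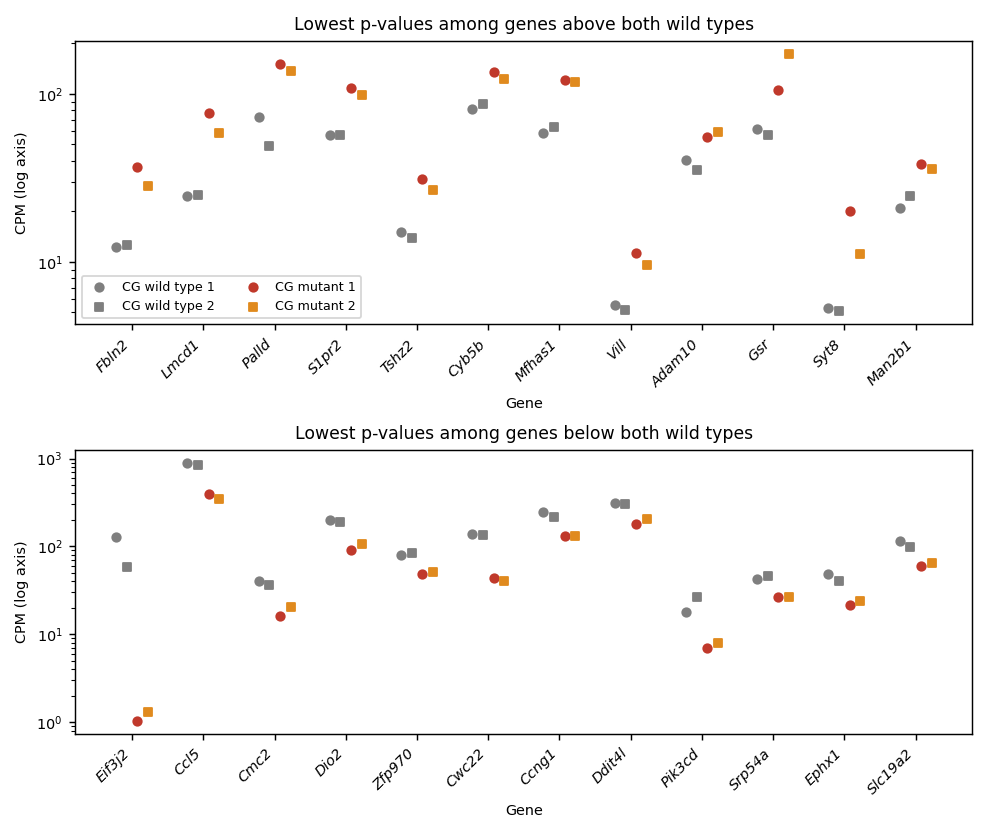
CPM on a log axis in each of the 4 CG libraries, 1 point per library, for the 12 named genes with the smallest p-values above both wild types (upper panel) and the 12 below them (lower panel). For Eif3j2 the wild types lie at 129 and 58.9 CPM and the mutants at 1.04 and 1.30; for Gsr mutant replicate 2 is the higher mutant.

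p53 is a transcription factor that is stabilised by DNA damage and other stress, and its targets halt the cell cycle or prepare cell death. Of 18 p53 target genes, all of them tested, 13 were lower in the mutants at an unadjusted p under 0.05 and none was higher, against 4.87% lower and 6.5% higher among all genes tested. Both mutants lay below both wild types for 14 of the 18, against 22.5% of all genes. The median log2 fold change of the list was -0.59, with -0.61 in mutant replicate 1 and -0.49 in replicate 2, against 0.0029 over all genes tested. None passed over all genes by edgeR's test, while 9 of the 18 passed by DESeq2 and 6 had a q-value under 0.05 in the authors' deposited table. Over all genes, DESeq2 called 213 of 18473, and 108 genes had such a q-value. The list was known from earlier results of these data.

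Of the listed p53 targets, Ccng1, cyclin G1, was at 249 and 218 CPM in the wild types and 130.1 and 132 in the mutants. Its log2 fold change was -0.83 ± 0.11 (edgeR adjusted p = 0.0865). Cdkn1a, the cyclin-dependent kinase inhibitor p21, was at 776 and 725 CPM in the wild types and 482 and 466 in the mutants. Gtse1, which binds p53 in the G2 phase, was at 11.3 and 8.98 CPM in the wild types and 3.24 and 4.54 in the mutants. For Ccng1 and Cdkn1a the mutants were close to each other, for Gtse1 they were farther apart than the wild types on the log2 scale, and in each case their distance to the nearer wild type was larger than the distance between the wild types. Mdm2, the ligase that degrades p53 and is itself a p53 target, was at 184 and 159 CPM in the wild types and 106 and 113 in the mutants. Phlda3, an inhibitor of AKT, was at 103 and 77.7 CPM in the wild types and 51.6 and 51.7 in the mutants. Zmat3, an RNA-binding zinc finger protein, was at 71.6 and 66.3 CPM in the wild types and 46.7 and 48.4 in the mutants. These 3 genes too showed mutants that lay close together below both wild types. The edgeR adjusted p-values of the last 5 genes were 0.145 for Cdkn1a, 0.128 for Gtse1, 0.178 for Mdm2, 0.18 for Phlda3 and 0.24 for Zmat3.

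Among the members that act in cell death, Eda2r, a receptor of the TNF receptor family, was at 33.2 and 26.4 CPM in the wild types and 12.8 and 15.8 in the mutants. Bax, which opens the outer mitochondrial membrane, was at 115 and 114 CPM in the wild types and 83.8 and 86.4 in the mutants. Bbc3, known as PUMA, was at 20.8 and 19.6 CPM in the wild types and 11.4 and 13.8 in the mutants. The wild types of Bax and Bbc3 lay within a narrow range, and all 3 genes were lower in both mutants. Trp53inp1, a nuclear cofactor of p53, Tnfrsf10b, a death receptor, Ei24, a membrane protein, and Aen, a nuclease, had log2 fold changes of -0.95 ± 0.20, -0.49 ± 0.10, -0.44 ± 0.12 and -0.28 ± 0.093. Of the 5 members with an unadjusted p of 0.05 or more, Pmaip1 was at -0.73 ± 0.60, Perp at -0.11 ± 0.28, Plk2 at 0.088 ± 0.23, Rrm2b at 0.17 ± 0.15 and Sesn1 at 0.16 ± 0.15. The mRNA of p53 itself, Trp53, was at 147 and 183 CPM in the wild types and 161 and 149 in the mutants, and these ranges overlapped.

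**Figure D2:**
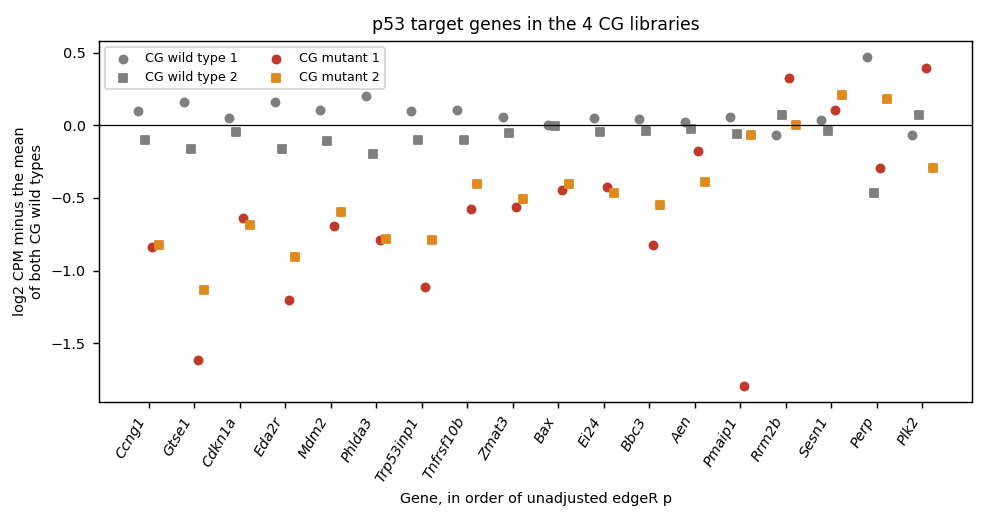
log2 CPM minus the mean of both CG wild types for the 18 p53 target genes, 1 point per library, with genes in order of p. From Ccng1 to Pmaip1, both mutants lie below both wild types, and for most of these genes the mutants lie close to each other.

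In the line with the C>T change the median of the same 18 genes was -0.052 and 1 was lower at an unadjusted p under 0.05. The difference in the mutant effect between the lines had an unadjusted edgeR p under 0.05, toward lower values in the CG line, for 10 of the 18 genes, against 2.14% of all genes. For Ccng1 this difference was -0.82 ± 0.16 on the log2 scale, with an edgeR adjusted p of 0.544, and for Eda2r it was -1.05 ± 0.26. When each of the 4 CG libraries was left out in turn, the list median in the CG line ran from -0.647 to -0.49.

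NRF2 is the transcription factor that answers oxidative stress, and its targets make and use glutathione and thioredoxin and handle haem and iron. All 16 NRF2 targets on the list were tested, and 10 were lower at an unadjusted p under 0.05 while none was higher. Over all genes tested, 4.87% were lower and 6.5% higher. Both mutants lay below both wild types for 13 of the 16, against 22.5% of all genes. Their median log2 fold change was -0.61, with -1.17 in mutant replicate 1 and -0.32 in replicate 2, so replicate 2 lay nearer to the wild types. Without mutant replicate 1 the median was -0.32 and 6 genes had such a p, and without mutant replicate 2 the median was -1.17 with 13 genes. In the same fits 2.64% and 10.6% of all genes were lower at such a p. DESeq2 called 5 of the 16, against 213 of 18473 genes in all, and edgeR called none of the 16. The summed level of the 16 genes was 14330 and 15430 CPM in the wild types and 7455 and 12370 CPM in the mutants.

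Srxn1, sulfiredoxin, which restores oxidised peroxiredoxins, was at 717 and 562 CPM in the wild types and 126 and 312 in the mutants, a log2 fold change of -1.55 ± 0.36 (edgeR adjusted p = 0.242). Hmox1, haem oxygenase 1, was at 1998 and 1850.5 CPM in the wild types and 506 and 1157 in the mutants. Txnrd1, thioredoxin reductase, was at 911 and 783 CPM in the wild types and 276 and 569.6 in the mutants. For each of them replicate 1 lay lowest, replicate 2 lay between it and the wild types, and the groups did not overlap. The glutathione genes had the same order of libraries. Gclc, the catalytic subunit of glutamate-cysteine ligase, was at 214 and 197 CPM in the wild types and 87.7 and 148 in the mutants, and Gclm, its modifier subunit, at 136 and 123 CPM in the wild types and 45.2 and 93.0 in the mutants. Slc7a11, the cystine transporter that supplies them, was at 467 and 485 CPM in the wild types and 204 and 335 in the mutants. Ftl1, the ferritin light chain, Prdx1, a peroxiredoxin, Osgin1 and Nfe2l2, which encodes NRF2 itself, had log2 fold changes of -0.61 ± 0.18, -0.56 ± 0.19, -0.94 ± 0.33 and -0.39 ± 0.13. Nfe2l2 is also on the list of reported miR-140-5p targets. Nqo1, a quinone reductase often used as a readout of NRF2, was at 168 and 172 CPM in the wild types and 143 and 165 in the mutants, a log2 fold change of -0.14 ± 0.16. Gsr, above, had the opposite sign to the list. Hmox1, Osgin1, Nqo1 and Gsr are all on chromosome 8 with Wwp2, and Nqo1 lies 2 tested genes before it. In the line with the C>T change the median of the list was -0.27, with 1 gene lower at an unadjusted p under 0.05, and the difference between the lines had such a p for 1 of the 16.

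**Figure D3:**
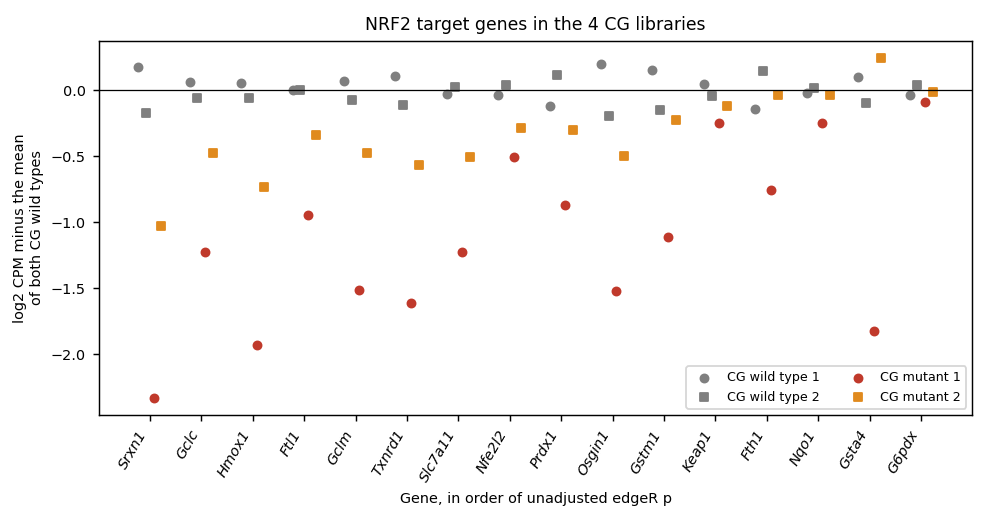
log2 CPM minus the mean of both CG wild types for the 16 NRF2 target genes, 1 point per library, with genes in order of p. Mutant replicate 1 lies below replicate 2 for all 16 genes, and for 13 of them both mutants lie below both wild types.

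NRF2 binds the antioxidant response element, whose core was searched as TGACNNNGC on both strands of RefSeq promoters (GRCm38.p6), from 250 bases before to 50 bases after each gene's start. A promoter was at hand for 13 of the 16 genes, and 6 of them held the letters, against 16.9% of 11337 tested genes with a promoter. A match is only a match of letters, and no match says nothing of NRF2. The stretches below are those of the 3 genes of this set with the smallest p-values, with the match in capitals, and all 3 are written along the minus strand. They lie at chr2:152105542-152105570, chr3:122245413-122245441 and chr10:82859104-82859132.
Srxn1: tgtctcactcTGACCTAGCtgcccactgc
Gclm: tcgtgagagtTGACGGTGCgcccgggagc
Txnrd1: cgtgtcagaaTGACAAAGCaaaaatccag

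In growth cartilage Indian hedgehog and parathyroid hormone-related protein form a loop that holds back hypertrophy, and BMP, IGF and thyroid hormone signals act on the same cells. Of 14 hedgehog axis genes tested, 4 were lower at an unadjusted p under 0.05 and none was higher, and the list median was -0.048. Over all genes tested, 4.87% were lower and 6.5% higher at such a p. The 4 include both ligands of the loop, at low levels. Pthlh was at 1.41 and 1.20 CPM in the wild types and 0.249 and 0.343 in the mutants, a log2 fold change of -2.12 ± 0.48, and Ihh was at 2.03 and 1.52 CPM in the wild types and 0.748 and 0.801 in the mutants, a log2 fold change of -1.19 ± 0.38. Hhip, a hedgehog-binding decoy that is itself induced by the pathway, was at 3.22 and 3.11 CPM in the wild types and 1.45 and 1.14 in the mutants. Gas1, a hedgehog co-receptor, was at 208 and 102 CPM in the wild types and 41.7 and 79.4 in the mutants. For all 4, both mutants lay below both wild types, with edgeR adjusted p-values of 0.237 for Pthlh, 0.321 for Ihh, 0.24 for Hhip and 0.27 for Gas1. Of all 14 members, 6 lay below both wild types in both mutants, 2 lay above them and 6 overlapped, against 22.5% below and 23.2% above over all genes. Among those that overlapped, Ptch1, the receptor and a common readout, was at 30.9 and 24.6 CPM in the wild types and 24.6 and 27.5 in the mutants. Gli1, another readout, was at 0.181 and 0.319 CPM in the wild types and 0.249 and 0.420 in the mutants. For Hhip the line with the C>T change had -1.19 ± 0.29 on the log2 scale, and the difference between the lines was -0.10 ± 0.42.

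Of 14 IGF axis genes, 5 were lower and 2 higher at an unadjusted p under 0.05, against 4.87% and 6.5% of all genes. The list median was -0.26, with -0.30 in mutant replicate 1 and -0.021 in replicate 2. The 2 higher genes were the growth factor Igf1, at 5.32 and 5.87 CPM in the wild types and 9.18 and 7.94 in the mutants, and the binding protein Igfbp4, at 234 and 247 CPM in the wild types and 371 and 315 in the mutants. The 5 lower genes included the receptor adaptors Irs1 and Irs2, with log2 fold changes of -0.34 ± 0.15 and -0.64 ± 0.19, the clearance receptor Igf2r at -0.25 ± 0.085, and the proteases Pappa and Htra1 at -0.44 ± 0.14 and -0.79 ± 0.17. Of 26 BMP and GDF axis genes, 5 were lower and 2 higher at such a p, against the same shares of all genes, with a median of -0.088. Bmp6, a ligand of hypertrophic cartilage, was at 326 and 329 CPM in the wild types and 252 and 221 in the mutants, and Gdf5, a joint ligand, at 80.3 and 80.7 CPM in the wild types and 56.5 and 65.7 in the mutants. Smad1, which carries the signal, Id2, a target, and Acvr1, a receptor, had log2 fold changes of -0.40 ± 0.11, -0.49 ± 0.18 and -0.27 ± 0.11. The 2 higher genes were the ligand Bmp5 at 0.77 ± 0.18 and the antagonist Grem1 at 0.62 ± 0.26.

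Of 10 thyroid hormone axis genes, 4 were lower and 1 higher at an unadjusted p under 0.05, against 4.87% and 6.5% of all genes. Their median was -0.425 in mutant replicate 1 and -0.059 in replicate 2. For 9 of the 10 the groups did not overlap, against 45.6% of all genes. Beside the activating deiodinase Dio2, at 199 and 190.4 CPM in the wild types and 90.3 and 105 in the mutants, the transporter Slc16a10, the receptor partner Rxra and the hormone-induced factor Klf9 had log2 fold changes of -0.86 ± 0.24, -0.30 ± 0.10 and -0.43 ± 0.17. Hr, another hormone-induced gene, had 0.57 ± 0.21 in the other direction. Its mutants were at 225 and 315 CPM and its wild types at 212 and 151, so that mutant replicate 2 was the higher mutant. None of the genes of these 4 lists passed over all genes by edgeR's test. DESeq2 called Dio2 and Slc16a10, Htra1 and Bmp5, and the authors' deposited table has q-values under 0.05 for Htra1 and Igfbp4. Without wild-type replicate 1 the counts at an unadjusted edgeR p under 0.05 were 2 lower for the hedgehog axis, 1 lower and 0 higher for the IGF axis, 2 lower and 1 higher for the BMP and GDF axis and 2 lower and 1 higher for the thyroid hormone axis, where 2.33% of all genes were lower and 3.27% higher. Without mutant replicate 1 the median was -0.121 for the hedgehog axis and -0.049 for the IGF axis. It was -0.12 for the BMP and GDF axis and -0.06 for the thyroid hormone axis.

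The main cartilage collagens lay above the wild-type mean in mutant replicate 1 and on both sides of it in replicate 2. The 7 cartilage fibril collagens had a median of 0.75 in mutant replicate 1 and -0.071 in replicate 2, and all 7 were above 0 in replicate 1 and 3 in replicate 2. Acan, the large proteoglycan, was at 3864 and 3502 CPM in the wild types and 6966 and 3724 in the mutants, and Sox9, the master factor of chondrocytes, at 653 and 590.3 CPM in the wild types and 1002 and 601 in the mutants. Without mutant replicate 1 the log2 fold changes of Col2a1 and Sox9 turned to -0.072 and -0.049. Col9a2 was the collagen of this list with an unadjusted p under 0.05, at 830.0 and 800.0 CPM in the wild types and 1597 and 934 in the mutants. Some small cartilage proteins were apart from the wild types in both mutants. Ucma, a secreted protein of young chondrocytes, was at 42.6 and 39.3 CPM in the wild types and 151 and 72.0 in the mutants, and Cilp2, of the intermediate layer proteins, at 94.4 and 71.2 CPM in the wild types and 25.2 and 47.2 in the mutants. Of the 13 such genes tested, 4 were higher and 1, Cilp2, was lower at an unadjusted p under 0.05, against 6.5% and 4.87% of all genes. The list median was -0.123, and -0.008 without mutant replicate 1. In that fit the log2 fold changes of Ucma and Cilp2 were 0.813 and -0.812, against 1.444 and -1.192 with all libraries. Col10a1, the collagen of hypertrophic chondrocytes, was at 1929 and 1913 CPM in the wild types and 2075 and 1421 in the mutants, and the groups overlapped.

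Genes of elastic fibres and their microfibrils had medians above 0 in both mutants, 0.52 in mutant replicate 1 and 0.31 in replicate 2. Of 18 genes, 7 were higher and 1 lower at an unadjusted p under 0.05, against 6.5% and 4.87% of all genes. Emilin1, an elastic fibre glycoprotein, was at 1095 and 1063 CPM in the wild types and 1767 and 1459.9 in the mutants, and its relative Emilin2 at 15.9 and 16.8 CPM in the wild types and 25.9 and 30.9 in the mutants. Fbn1, which builds microfibrils, was at 259 and 223 CPM in the wild types and 419 and 310.2 in the mutants. For each of these the groups did not overlap. Efemp2, a fibulin, Ltbp1, which stores latent TGF-beta, and Fbln2, another fibulin, had log2 fold changes of 0.72 ± 0.21, 0.55 ± 0.15 and 1.39 ± 0.16. Eln, elastin itself, was at 98.6 and 58.8 CPM in the wild types and 213 and 94.5 in the mutants, where mutant replicate 2 overlapped with the wild types. Ltbp4 had the opposite sign, at -0.42 ± 0.12. None of these genes passed over all genes by edgeR's test. DESeq2 called Fbln2, Emilin1, Efemp2, Fbn1 and Emilin2, and the authors' deposited table has q-values under 0.05 for Emilin1, Emilin2 and Fbln2. When each of the 4 CG libraries was left out, the list median ran from 0.088 without wild-type replicate 1 to 0.52 without mutant replicate 2.

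The list median of 21 matrix receptors was -0.021. At an unadjusted p under 0.05, 6 were higher and 3 lower, against 6.5% and 4.87% of all genes. Each of the 6 had a smaller log2 fold change without mutant replicate 1, from 0.16 for Cspg4 to 0.782 for Itga6. Of the 6, 5 were alpha integrin chains, led by the laminin receptor chain Itga6, at 112 and 107 CPM in the wild types and 246 and 188 in the mutants. The laminin chain Itga3, the collagen chain Itga2, the fibronectin chain Itga5 and the vitronectin chain Itgav had log2 fold changes of 0.77 ± 0.22, 0.69 ± 0.20, 0.43 ± 0.13 and 0.32 ± 0.11. The proteoglycan Cspg4 had 0.31 ± 0.13. The syndecans Sdc4 and Sdc3 and the integrin chain Itgb8 were the 3 lower genes, at -0.51 ± 0.15, -0.30 ± 0.10 and -1.43 ± 0.48. Fn1, fibronectin, the ligand of the Itga5 chain, was the most abundant gene by counts, with 4.21% and 4.89% of all counts in the wild types and 6.52% and 5.07% in the mutants.

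Of 26 matrix proteases and inhibitors, 3 were higher and 3 lower at an unadjusted p under 0.05, against 6.5% and 4.87% of all genes. Their median was -0.455 in mutant replicate 1 and 0.158 in replicate 2. Timp3, an inhibitor bound to the matrix, was at 2799 and 3000.3 CPM in the wild types and 8379 and 4251 in the mutants. Mmp12, the macrophage elastase, was at 468 and 425 CPM in the wild types and 111 and 216 in the mutants. Mmp13, the collagenase of hypertrophic cartilage, was at 1713 and 2684 CPM in the wild types and 813 and 1565 in the mutants. Timp3 was farther from the wild types in mutant replicate 1 than in replicate 2, and the wild types of Mmp13 differed from each other more than the nearer wild type did from mutant replicate 2. The 20 contractile and actin genes split evenly at such a p, with 4 higher and 4 lower, and their median was -0.065. That median was 0.004 without wild-type replicate 1 and -0.018 without mutant replicate 1. The 4 higher were Lmcd1, Palld, Cnn2 and Tagln, with log2 fold changes of 1.45 ± 0.17, 1.24 ± 0.17, 0.63 ± 0.19 and 0.66 ± 0.22. Tagln is a smooth muscle marker, as are several of the 4 lower genes, Cnn1, Acta2, Synpo2 and Mylk, at -1.18 ± 0.30, -0.63 ± 0.21, -0.64 ± 0.24 and -0.58 ± 0.25.

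Chemokine genes mostly lay below the wild types. Ccl5, with the smallest p of the list and the second smallest of all genes, was at 894 and 838 CPM in the wild types and 394 and 350.3 in the mutants, a log2 fold change of -1.22 ± 0.13 (edgeR adjusted p = 0.08), with mutant replicate 2 the farther one from the wild types. It passed with the replicate block, with no filter on low counts, without mutant replicate 2 and by DESeq2. Of 17 tested, 5 were lower and 1 higher at an unadjusted p under 0.05, against 4.87% and 6.5% of all genes. Both mutants lay below both wild types for 9 of the 17, against 22.5% of all genes. The list median was -0.98 in mutant replicate 1 and -0.12 in replicate 2. Cxcl1, a neutrophil attractant, was at 1113 and 1589.8 CPM in the wild types and 307 and 691 in the mutants, and Cxcl2, a close relative, at 283 and 413 CPM in the wild types and 55.1 and 184 in the mutants. Cx3cl1, a membrane-bound chemokine, was at 195 and 165 CPM in the wild types and 99.2 and 135 in the mutants, while Ccl9 was the higher one, at 91.7 and 120.5 CPM in the wild types and 248 and 121 in the mutants. Of 25 immediate early genes, 15 had both mutants below both wild types, and 4 were lower at such a p with none higher. The list median was -0.24, and -0.32 in the line with the C>T change, where 4 of the 25 and 382 of 14359 genes were lower. In the CG line the 4 were led by Ier3 at -0.69 ± 0.21 and the orphan receptors Nr4a1 at -0.66 ± 0.21 and Nr4a2 at -0.78 ± 0.25. The shares over all genes are those given for the chemokines, and for the fits without 1 mutant those given for the NRF2 targets. Without mutant replicate 1, 0 of the 25 were lower and without mutant replicate 2, 8 were. The lower chemokines numbered 2 without mutant replicate 1 and 11 without mutant replicate 2.

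Markers of several other cell types lay below the wild types in mutant replicate 1 and near or above them in replicate 2. The median of 13 macrophage and leukocyte markers was -1.51 in replicate 1 and 0.14 in replicate 2, and the summed level of all 18 was 573.9 and 493.1 CPM in the wild types and 338.7 and 478.7 CPM in the mutants, with 2 or 3 of them at 0 in each library. The 12 endothelial markers had medians of -1.05 and 0.24, with sums of 57.3 and 45.1 CPM in the wild types and 22.3 and 58.9 CPM in the mutants, and none at 0. The 11 neutrophil granule genes tested had medians of -0.83 and 0.17, while the summed level of all 12 was highest in replicate 1, with 2183 and 2744 CPM in the wild types and 4433 and 2746 CPM in the mutants. The 12 skeletal muscle genes tested had medians of -1.26 and 0.64, and the 7 erythroid genes tested had -1.99 and -0.11. Fewer cells of a type and less RNA per cell cannot be told apart in these bulk libraries. The part of these cells in the lower chemokine and NRF2 target levels of replicate 1 was not tested.

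**Figure D4:**
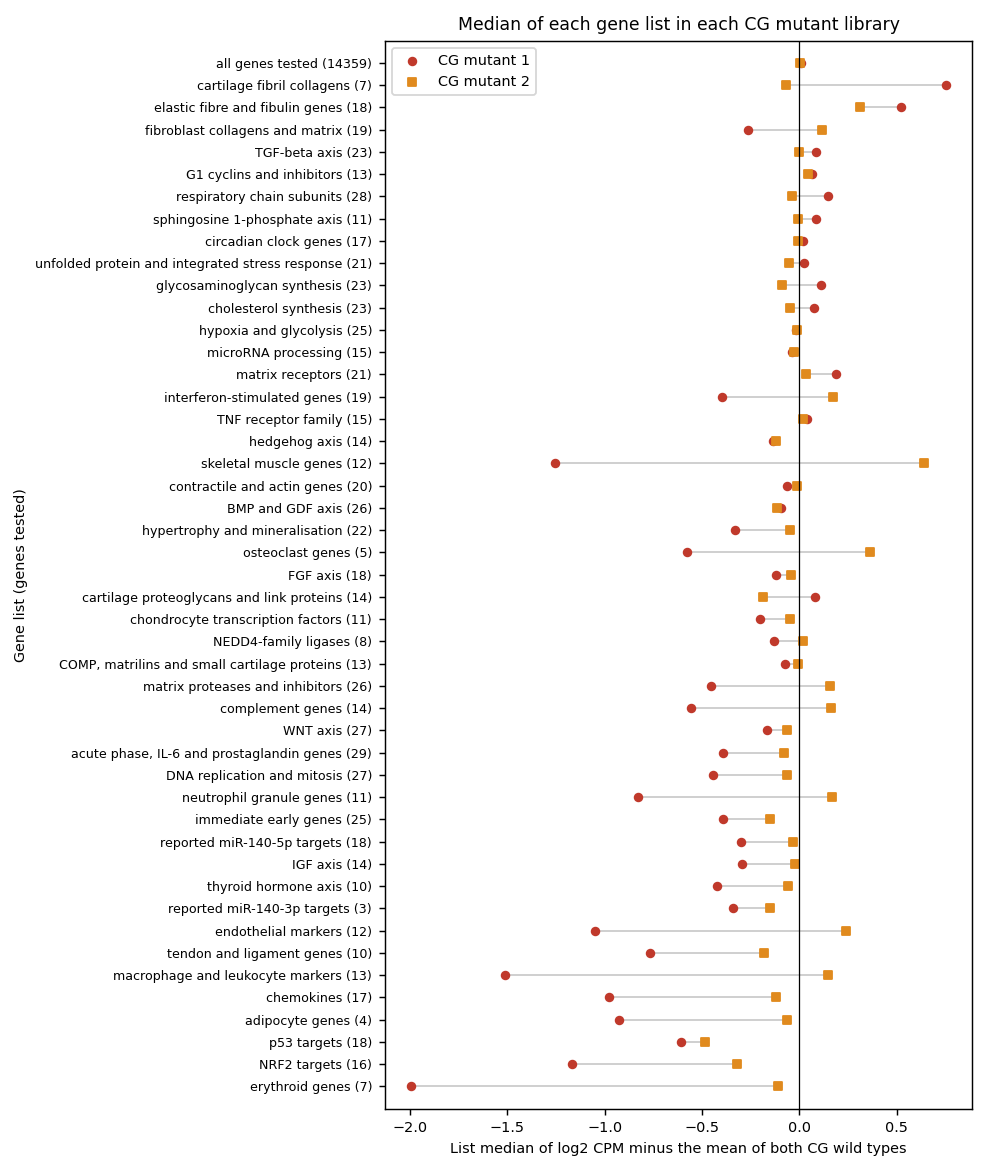
Median over each gene list of log2 CPM minus the mean of both CG wild types, for mutant replicate 1 (circles) and mutant replicate 2 (squares), with the number of genes tested in brackets and lists in order of the fitted median. The p53 targets lie at -0.61 and -0.49, the NRF2 targets at -1.17 and -0.32, and the macrophage and leukocyte markers at -1.51 and 0.14.

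The genes that set mutant replicate 1 apart, with replicate 2 within 0.5 of the wild-type mean on the log2 scale, included some collagen and matrix genes of fibroblasts and tendon among the lower ones. The 19 genes of the fibroblast list lay on both sides of the wild types: 9 of them were above the wild-type mean in replicate 1 and 15 in replicate 2, and their summed level was highest in replicate 1, at 72610 and 81110 CPM in the wild types and 112100 and 83120 CPM in the mutants. Col3a1, the type III collagen, was at 181 and 154 CPM in the wild types and 39.1 and 184 in the mutants, and Col1a1, the type I collagen, at 312 and 302 CPM in the wild types and 104 and 297 in the mutants. Postn, periostin, was at 119 and 109.8 CPM in the wild types and 27.0 and 119 in the mutants, and Thbs4, a tendon thrombospondin, at 186 and 193 CPM in the wild types and 44.4 and 233 in the mutants. In all 4 cases replicate 2 was near the wild types. The cytokine Il6 was at 46.8 and 52.2 CPM in the wild types and 6.81 and 37.7 in the mutants, and lipoprotein lipase, Lpl, at 25.8 and 22.5 CPM in the wild types and 3.78 and 19.2 in the mutants. Of the genes that replicate 1 had higher, Reln, reelin, was at 65.4 and 77.7 CPM in the wild types and 234 and 84.1 in the mutants, and Dock8, an exchange factor of small GTPases, at 73.0 and 81.7 CPM in the wild types and 177 and 73.4 in the mutants. In all, 301 genes were more than 1 above the wild-type mean in replicate 1, 205 in replicate 2 and 71 in both, and 999 were more than 1 below it in replicate 1, 188 in replicate 2 and 78 in both.

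Genes of G1 cyclins and their inhibitors had log2 fold changes of both signs. Ccnd1, cyclin D1, was at 103 and 94.0 CPM in the wild types and 184 and 160.2 in the mutants, and Cdkn2b, the inhibitor p15, at 5.83 and 7.02 CPM in the wild types and 9.18 and 10.5 in the mutants, both with log2 fold changes above 0, at 0.80 ± 0.16 and 0.62 ± 0.18. Cdkn1a lay on the other side. Of 27 genes of DNA replication and mitosis, 3 had a log2 fold change above 0. The list median was -0.21, with -0.44 in mutant replicate 1 and -0.062 in replicate 2. None was higher and 1, Ccnb2, was lower at an unadjusted p under 0.05, against 6.5% and 4.87% of all genes. Both mutants lay below both wild types for 12 of the 27, against 22.5% of all genes. Mki67, a marker of dividing cells, was at 6.05 and 5.23 CPM in the wild types and 4.11 and 5.65 in the mutants, and its groups overlapped.

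Reported targets of the arms were described next, since the seed was altered in the 3p arm and the 5p arm is described as raised. The 18 reported 5p targets tested had a median of -0.30 in mutant replicate 1 and -0.035 in replicate 2. At an unadjusted p under 0.05, 3 were lower and 1 higher, against 4.87% and 6.5% of all genes. The 3 lower genes were Nfe2l2, Ostm1 and the TGF-beta receptor Tgfbr1. Tgfbr1 was at 60.6 and 60.1 CPM in the wild types and 49.8 and 51.5 in the mutants. The fitted list median was -0.243. It was -0.037 without mutant replicate 1, -0.258 without wild-type replicate 2 and -0.296 without mutant replicate 2. The higher one of the 8-library fit was Loxl3, at 0.50 ± 0.20. Hdac4, a deacetylase among the first reported 5p targets, was at 52.7 and 52.4 CPM in the wild types and 43.3 and 48.0 in the mutants. The 3 reported 3p targets, Nrip1, Ncoa1 and Cd38, had log2 fold changes of -0.28 ± 0.12, -0.12 ± 0.11 and -0.38 ± 0.39. Of 15 genes of microRNA processing, none had an unadjusted p under 0.05, and Dicer1, which cuts hairpins, was at 109.9 and 116 CPM in the wild types and 104 and 99.7 in the mutants.

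Matches to the unaltered 3p seed were counted in the longest annotated 3′ UTR of 13907 genes. The 8-base site was held by 610 genes (4.39%), and 60 of them were higher and 31 lower at an unadjusted p under 0.05. Of the 13297 genes without it, 848 were higher and 652 lower at such a p. Over all genes tested, the shares were 6.5% and 4.87%. Both mutants lay above both wild types for 27.4% of genes with the site and 22.9% of genes without it, and below them for 128 of the 610 and for 22.6% of the others. Their median log2 fold changes were 0.023 and 0.0025, and in the line with the C>T change 0.025 and -0.0033. The 7-base match was held by 2917 genes, which had longer 3′ UTRs, with a median length of 2480 bases against 1114. Both mutants were above both wild types for 23.9% of these genes and below for 23.0%, against 22.9% and 22.5% of genes without the match. For the 560 genes with 2 or more matches the shares were 23.4% above and 26.1% below. Long 3′ UTRs had lower fold changes with or without a match, so the match was also read within ranges of length. For UTRs from 500 to under 1500 bases both mutants were above both wild types for 28.9% of 606 genes with a match and 23.7% of 4104 without, and below for 111 of the 606 and 903 of the 4104. For UTRs under 500 bases the shares above were 30.6% of 121 genes and 24.6%, and the shares below 6.61% and 17.8%. For UTRs of 1500 bases or more the shares above were 22.1% and 21.1%, and the shares below 25.2% and 25.8%. The medians of these sets differed by less than 0.1 on the log2 scale, and no set was tested.

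An arm that starts 1 base later in the hairpin would have the seed CCACAGG, whose match is CCTGTGG and shares 6 letters with that of the annotated arm, so that many genes hold both. This start was chosen after the data were seen. The match was held by 3155 genes, and both mutants lay above both wild types for 25.5% of them and for 22.4% of the others. They lay below for 22.2% and 22.7%, and the median log2 fold changes were 0.0079 and 0.0024. For UTRs under 500 bases the shares above were 38.0% of 163 genes and 24.0%, and the shares below 9.2% and 17.8%. For UTRs from 500 to under 1500 bases they were 28.5% and 23.6% above, and 19.3% and 21.9% below. Most genes with the match, 2263, had UTRs of 1500 bases or more. There the shares were 23.7% and 20.2% above, and 24.0% and 26.4% below.

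Wwp2, the host gene of miR-140, was at 497 and 489.7 CPM in the wild types and 1043 and 601 in the mutants, a log2 fold change of 0.74 ± 0.28 (edgeR adjusted p = 0.384), and was highest in mutant replicate 1. In RefSeq gene order, 749 genes of chromosome 8 were tested, and 120 of them, 65 higher and 55 lower, had an unadjusted p under 0.05 (16.0%, against 11.4% of all genes). Of the 77 genes with an unadjusted p under 0.001, 14 were on chromosome 8, which is 1.87% of its genes and the highest share of any chromosome, followed by chromosome 2 at 0.879% with 10 genes. The 14 were spread along the chromosome, and 7 of them lay more than 400 tested genes before Wwp2. Of the 50 tested genes on each side of Wwp2, 2 of 100 were among the 14, Cyb5b and Zfp612. Cmc2 and Gcsh lay 52 and 56 tested genes after Wwp2. An unadjusted p under 0.05 was found for 9 of the 100. In the nearest 25 genes these were 3 higher and 2 lower before Wwp2, and 1 higher and 2 lower after it. In the next 25 there was 1 higher before it and none after it.

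Of these 14 genes, 9 were higher and 5 lower. Cyb5b, given above, lies 4 tested genes from Wwp2. Gcsh, of the glycine cleavage system, was at 21.8 and 23.4 CPM in the wild types and 37.9 and 37.2 in the mutants, and Cmc2, a mitochondrial protein 4 tested genes away from it, at 40.1 and 36.7 CPM in the wild types and 16.3 and 20.6 in the mutants. These neighbours thus had opposite signs. Ciapin1, of iron-sulphur cluster assembly, was at 94.5 and 109 CPM in the wild types and 70.3 and 66.7 in the mutants, and Zfp612, a zinc finger gene, at 19.8 and 18.7 CPM in the wild types and 10.6 and 8.59 in the mutants. In the distant group around Gsr and Mfhas1, Fut10, a fucosyltransferase, was at 3.11 and 3.51 CPM in the wild types and 6.61 and 7.78 in the mutants, and Zdhhc2, a palmitoyltransferase, at 8.08 and 10.4 CPM in the wild types and 4.57 and 5.00 in the mutants. Adgra2, an adhesion receptor, Pcm1, a centriolar satellite protein, and Gas6, a ligand of TAM receptors, had log2 fold changes of 0.75 ± 0.14, 0.49 ± 0.093 and -0.84 ± 0.17. In the line with the C>T change the log2 fold changes of 12 of these 14 genes lay between -0.3 and 0.3. The mutation and other sequence differences between the mutant and wild-type copies of this chromosome cannot be told apart in these data. The same limit holds for Hmox1, Osgin1, Nqo1, Hhip, Smad1, Irs2, Cilp2 and Cx3cl1 above, which are also on chromosome 8.

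**Figure D5:**
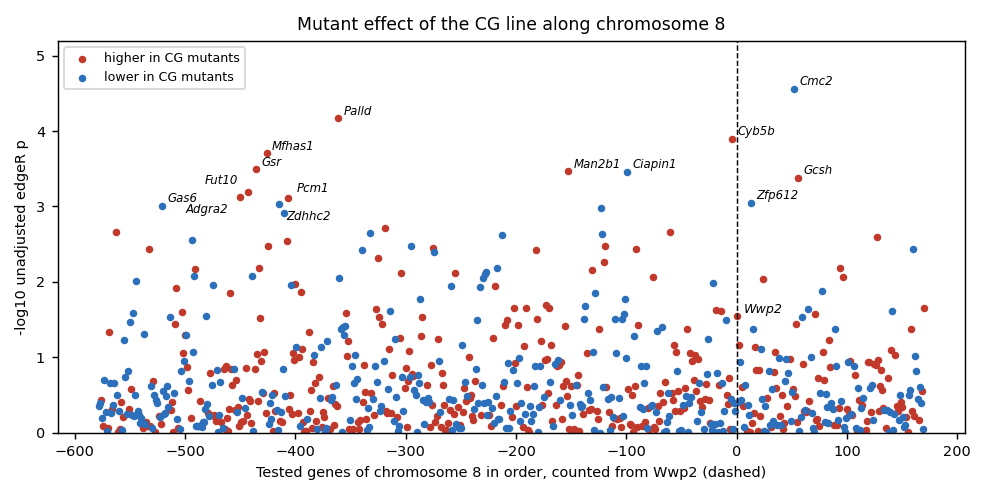
-log10 of the unadjusted edgeR p of the 749 tested genes of chromosome 8, in gene order counted from Wwp2 at the dashed line, coloured by direction. The 14 named genes above 3 are spread along the chromosome, with a group of 7 more than 400 genes before Wwp2.

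The authors' deposited table gives a q-value under 0.05 in the comparison of CG mutants with CG wild types for 108 genes, of which 85 were higher and 23 lower. All 108 had the same sign in the edgeR fit, and for all of them both mutants lay on one side of both wild types, while 106 had an unadjusted edgeR p under 0.05. The 85 higher genes had medians of 0.93 in mutant replicate 1 and 0.66 in replicate 2, and the 23 lower genes -0.95 and -0.72. Mutant replicate 1 was the farther one from the wild types for 89 of the 108, and for 16 replicate 2 was within 0.5 of the wild-type mean.

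The mutant effects of the 2 lines were compared by the test of their difference, with no library shared between the comparisons. It passed for 3 of 14359 genes (0.0209%), Eif3j2, Cwc22 and Palld, an actin-binding protein of chromosome 8. In the CG line Palld had wild types at 72.6 and 49.2 CPM and mutants at 151 and 138 CPM, with log2 fold changes of 1.24 ± 0.17 there and -1.27 ± 0.17 in the line with the C>T change, a difference of 2.52 ± 0.23 (edgeR adjusted p = 0.0239). Cwc22 had -1.71 ± 0.21 in the CG line and 1.95 ± 0.21 in the other (edgeR adjusted p of the difference = 0.0148). All 3 thus had opposite signs in the lines. Eif3j2 kept its call in all 17 alternatives, Cwc22 lost it without either wild type of the other line, and Palld lost it without any 1 of the 4 libraries of that line and on log2(FPKM + 0.1).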

How the data were processed

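RNA of 8 libraries, 2 in each of 4 groups, was sequenced on DNBSEQ, per the series design text, and reads were aligned with HISAT2 2.0.4 to mm9, per the submitters' processing notes. The sources used here name no read counter and no annotation. The estimated counts deposited by the authors carry no normalization per the file headers. They can divide reads between near-identical genes, and 2282 to 2518 genes per library were not whole. They were rounded to whole numbers. The FPKM values deposited by the authors were used only in alternatives, after adding 1 or 0.1 and taking log2. A second table deposited by the authors holds a log2 ratio and a q-value for each gene and comparison, from a test that the sources used here do not name.

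Of 18501 genes, 14359 passed edgeR's default filter. Testing used edgeR 4.0.16 in R 4.3.3 (quasi-likelihood F test, TMM factors, 4 group means over 8 libraries, 4 residual degrees of freedom, Benjamini-Hochberg adjustment, threshold 0.05), after a check on simulated data. CPM values use TMM library sizes, log2 CPM a prior count of 2, and errors are standard errors of the fit. Symbols of 24 genes turned into dates were restored from Entrez IDs, of which 18381 were in the RefSeq table of GRCm38.p6. That table gave names and gene order, RefSeq gave promoters and the microRNA, and GENCODE M21 gave 3′ UTRs of at least 50 bases. Coordinates printed are from these references, not from mm9.

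The 47 gene lists, the genes and the comparisons were chosen with earlier results of these data known. Named genes are the 12 with the smallest p in each direction with non-overlapping groups and mean log2 CPM of at least 1, the 8 with the largest gaps, the 10 in each direction with the largest difference between the mutants while replicate 2 is within 0.5 of the wild-type mean, fixed check genes, the neighbours of Wwp2, and the members of each list with the smallest p. Not all are printed. Alternatives were DESeq2 1.42.0, limma-voom (limma 3.58.1), other scaling, filters and terms, the deposited FPKM, and leaving out each library. The depth of 26536868 to 28267472 counts makes counting error small beside the spread between libraries for well-counted genes. For genes with few counts, such as Pthlh and Gli1, it does not.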

Additional observations from a re-analysis of the deposited data

Results flagged for a closer look

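For 3 genes the test of the difference itself found the mutant effect to differ between the CG line and the line with the C>T change. The difference, CG minus C>T on the log2 scale, was -11.62 for Eif3j2, with an edgeR adjusted p of 0.00053. It was -3.66 for Cwc22 (0.0148) and 2.52 for Palld (0.0239), both by the same edgeR test. For each gene both mutants lay on one side of both wild types in each line, on opposite sides in the 2 lines. Eif3j2 has the near-identical copy Eif3j1, which had 2.60 ± 1.61 in the same contrast, so its reads may be divided differently in each library. In the C>T line the counts of Eif3j2 were 44 and 41 in the wild types and 1745 and 1759 in the mutants. Those of Eif3j1 were 5186 and 5328 in the wild types and 3598 and 3466 in the mutants, so the copies moved in opposite directions there too. The division of reads between the copies was not tested. The call of Palld was lost without any 1 of the 4 libraries of the C>T line and with 0.1 added to the FPKM, and that of Cwc22 without either C>T wild type.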

How the results depend on the processing

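In the comparison of CG mutants with CG wild types, edgeR called 1 gene. It called 13 with no filter on low counts, 3 with the replicate block and 2 with a term for Y-linked reads. limma-voom called 0, with 1617 genes at an unadjusted p under 0.05. On the deposited FPKM, limma called 4 genes with 1 added and 3 with 0.1 added. DESeq2 called 213, of which 117 were higher and 96 lower. Leaving out 1 library gave 1 to 522 calls, the most without mutant replicate 2, where 229 were higher and 293 lower, with 4 without mutant replicate 1, 3 without wild-type replicate 1, 2 without wild-type replicate 2 and 2 without either mutant of the other line. The lone library is then assumed to vary like the other groups. For the difference between the lines edgeR called 3 genes, 5 with no filter, and DESeq2 38, and leaving out 1 library gave 1 to 97, the most again without CG mutant replicate 2 and the fewest without wild-type replicate 1 of the other line. The replicate block gave 3 calls there too. The numbers do not pair the CG groups, since the deviations of same-numbered libraries had a correlation of -0.089. The other scaling and the stricter filter moved neither count by over 1.5 times.

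Of the 153 genes named, 140 kept their sign under all the alternatives run. When 1 library was left out, ranges over 0 were -0.436 to 0.116 for Col10a1, -0.072 to 0.701 for Col2a1, -2.10 to 0.132 for Col3a1, -0.135 to 10.22 for Ddx3y, -0.077 to 1.199 for Dock8, -0.503 to 0.433 for Perp, -0.300 to 0.396 for Plk2, -2.083 to 0.050 for Postn, -0.238 to 0.083 for Ptch1, -0.001 to 0.329 for Rrm2b, -0.049 to 0.694 for Sox9, -2.09 to 0.296 for Thbs4 and -0.245 to 0.077 for Trp53. With the term for Y-linked reads Ddx3y was at -0.017, Perp at 0.053 and Plk2 at -0.045, and on the FPKM, with 1 or 0.1 added, Plk2 was at -0.002. The cause was not tested. With 2 libraries a group, the spread between libraries limits what can be called, and for genes with few counts the depth does too.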

Other observations

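Several lists of general metabolism and stress had medians near 0 in the CG mutants. Their counts at an unadjusted p under 0.05 stand beside 6.5% higher and 4.87% lower over all genes tested. The 28 respiratory chain subunits had a median log2 fold change of 0.053 and none with an unadjusted p under 0.05. The 23 cholesterol synthesis genes had a median of -0.0073, with 1 higher and 2 lower, the 25 hypoxia and glycolysis genes -0.019, with 3 and 3, and the 21 genes of the unfolded protein response and related stress 0.021, with 2 and 0. The 17 circadian clock genes had 0.023, with 0 and 1. The 27 WNT axis genes had a median of -0.17 with 2 higher and 2 lower, the 18 FGF axis genes -0.094 with 1 and 2, and the 23 TGF-beta axis genes 0.10 with 2 and 1.

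Of the 8 NEDD4-family ligases tested, which include Wwp2, Nedd4l was at 68.5 and 68.2 CPM in the wild types and 36.3 and 54.3 in the mutants, and Itch at 68.1 and 64.0 CPM in the wild types and 57.3 and 56.8 in the mutants. Both were lower at an unadjusted p under 0.05, while Wwp2 was higher, against 4.87% lower and 6.5% higher over all genes. None passed over all genes by edgeR's test.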
